A study of Mus musculus with 7 samples.

Results

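*Tcap*, *Pnmt*, *Pgap3*, *Stard3* and *Ppp1r1b* are 5 neighbouring genes on mouse chromosome 11, out of 21938 protein-coding genes in the annotation. Every peak of the 6 deposited ChIP-seq lists that overlapped the body of one of these genes, or lay within 10 kb of one of their annotated transcription start sites (TSSs), was taken, which gave 28 peaks. The lists came from gastrocnemius muscles of wild-type male C57BL/6J mice at 5 months of age, kept on a 12:12 light:dark cycle and standard chow. BMAL1 was mapped at Zeitgeber time (ZT, hours after lights on) 4, REV-ERBα at ZT 8 with a mixture of antibodies, and RNA polymerase II (RNAP2) at ZT 4, with 2 biological replicates each. All groups shared genotype and treatment, and the sampling time of BMAL1 and REV-ERBα differed together with the antibody, so factor and time cannot be told apart.

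BMAL1 is the activating clock factor that pairs with CLOCK and binds E-box sequences, and REV-ERBα is a nuclear receptor that binds AGGTCA-like half-sites and represses transcription, including that of *Bmal1*. RNAP2 peaks mark DNA occupied by the polymerase, and a peak does not by itself show transcription. *Tcap* encodes telethonin, the protein that caps the end of titin in the Z-disc of striated muscle. *Pnmt* encodes the enzyme that turns noradrenaline into adrenaline, best known from the adrenal medulla. *Pgap3* acts in lipid remodelling of GPI anchors, *Stard3* transfers sterol between late endosomes and other membranes, and *Ppp1r1b* encodes DARPP-32, a dopamine-regulated inhibitor of protein phosphatase 1 known from the striatum.

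Within GRCm38 (mm10), the genes lay in the order *Ppp1r1b* (98348404 to 98357796), *Stard3* (98358368 to 98381112), *Tcap* (ENSMUSG00000007877, 98383811 to 98384953), *Pnmt* (98386450 to 98388181) and *Pgap3* (98388677 to 98400490), which together cover 52087 bp. *Pgap3* lies on the minus strand and the other genes on the plus strand. *Tcap* is 1143 bp long, with exon 1 of 146 bp, an intron of 195 bp and exon 2 of 802 bp. The gap from the end of *Tcap* to the first *Pnmt* base is 1496 bp, and the gap from the end of *Stard3* to the *Tcap* TSS is 2698 bp.

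The stretches of sequence under the summits are shown first, since the summits fell at separate places of the locus. The first is chr11:98383487-98383706 (GRCm38, plus strand), upstream of *Tcap* and under the summit of BMAL1 replicate 1, with a variant E-box (CATGTG) and a pair of AGGTCA half-sites, which read TGACCT on this strand, in capitals.
Tcap upstream: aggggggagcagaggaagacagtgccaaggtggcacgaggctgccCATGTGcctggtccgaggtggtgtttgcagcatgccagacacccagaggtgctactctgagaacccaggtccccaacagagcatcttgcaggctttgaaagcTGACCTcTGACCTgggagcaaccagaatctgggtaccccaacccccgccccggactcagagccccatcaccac
The second is chr11:98385122-98385371 (GRCm38, plus strand), between *Tcap* and *Pnmt*, which holds the summits of BMAL1 replicate 2 and of both REV-ERBα replicates, with a CAGCTG E-box and a facing pair of GGGTCA half-sites in capitals.
Between Tcap and Pnmt: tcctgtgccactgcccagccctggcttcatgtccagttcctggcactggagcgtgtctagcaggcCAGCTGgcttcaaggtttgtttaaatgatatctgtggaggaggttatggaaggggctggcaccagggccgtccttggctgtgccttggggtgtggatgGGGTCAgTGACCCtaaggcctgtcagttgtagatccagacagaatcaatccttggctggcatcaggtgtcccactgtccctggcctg

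The lists differed in size, and replicates of BMAL1 differed most. BMAL1 replicate 1 held 34737 peaks and replicate 2 held 177669, REV-ERBα 28881 and 29934, and RNAP2 87870 and 168821. The significance of a peak is given here as the −log10 of its p-value from the peak caller. The highest significance was 870 in BMAL1 replicate 1 and 31.6 in replicate 2, so values of different lists are set beside the ranks within each list. The tissue label was checked with RNAP2: 10 of 10 muscle fibre markers had an RNAP2 region in both replicates, as 41.1% of all genes did, with a median significance of 28.6 (4.47 over all genes with one). Such a region was found for 1 of 4 endothelial markers (*Kdr*, 1.99), 1 of 4 leukocyte markers (*Cd68*, 9.47) and 2 of 4 fibroblast markers (highest *Col1a1*, 5.52), counts too small to set apart from that share, and for 0 of 4 adipocyte, 0 of 4 neuron and glia and 0 of 4 adrenal chromaffin markers. The chromatin came from whole muscle, so weak occupancy in many nuclei and strong occupancy in few cannot be told apart.

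All 6 lists had 1 wide peak over *Tcap*, and this peak was the strongest at the locus in every list. Merged, the 6 peaks ran from 98383368 to 98386994, or 3627 bp. This takes in the *Tcap* promoter, the whole gene, the gap behind it and the 5′ part of *Pnmt* with both of its annotated TSSs. The peaks of all 6 lists covered 2838 bp in common (98383619 to 98386456), or 78.2% of that length. The highest significance among the remaining peaks was 6.46, in BMAL1 replicate 1, and REV-ERBα had no other peak at the locus in either replicate.

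**Figure D1:**
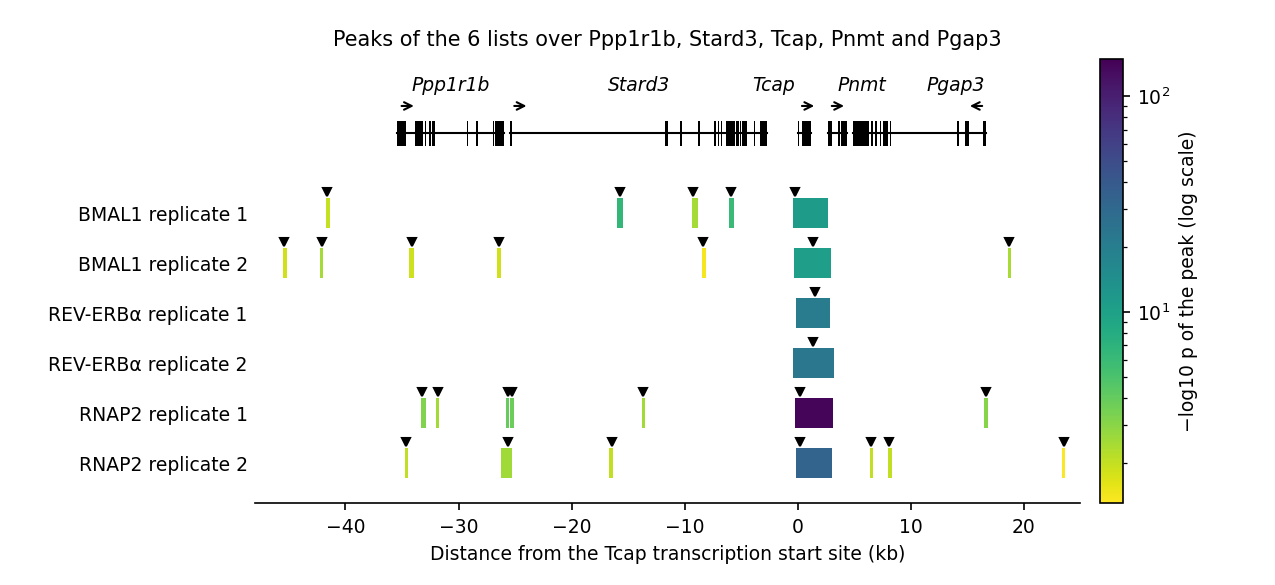
Peaks of the 6 lists by distance from the Tcap TSS in kb, with genes and their exons on top and arrows for the direction of transcription. Each bar is a peak, its colour is the −log10 p on a log scale and the triangle is its summit. Very narrow peaks are drawn slightly wider than they are. The 6 wide bars over Tcap are 3007 to 3573 bp long.

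For BMAL1, the peak over *Tcap* had a significance of 10.996 in replicate 1, a fold enrichment over input of 4.52 and rank 34 of 34737 peaks. In replicate 2 it had a significance of 10.635, a fold enrichment of 5.47 and rank 14 of 177669. The fold enrichments averaged 5.00 ± 0.671 (SD, n = 2). Both replicates thus placed it among their few strongest peaks and among their widest, at rank 20 by width in replicate 1 and rank 4 in replicate 2.

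For REV-ERBα, the significance was 21.2 in replicate 1, with a fold enrichment of 7.06 and rank 72 of 28881. In replicate 2 it was 22.7, with a fold enrichment of 7.87 and rank 77 of 29934. The replicates were close, with a mean fold enrichment of 7.47 ± 0.569 (SD, n = 2).

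For RNAP2, replicate 1 had a significance of 141, a fold enrichment of 40.7 and rank 2 of 87861 peaks on the assembled chromosomes. Replicate 2 had a significance of 33.2, a fold enrichment of 12.9 and rank 70 of 168821. The mean fold enrichment was 26.8 ± 19.7 (SD, n = 2), so the level of RNAP2 differed by much more between replicates than that of the clock factors, while both values were far above the median peak of their lists (significance 3.21 and 1.99).

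Regions with a peak in both replicates were then ranked by the weaker of their replicate values. The *Tcap* region was number 8 of 2742 for BMAL1 (10.6, against a median of 1.87). It was number 64 of 1263 for REV-ERBα (21.2, against 2.501) and number 68 of 10752 for RNAP2 (33.2, against 3.07). The region was also wide, at 3379, 3573 and 3320 bp for BMAL1, REV-ERBα and RNAP2 against medians of 729, 810 and 600 bp. *Tcap* therefore stood near the top of all 3 rankings.

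**Figure D2:**
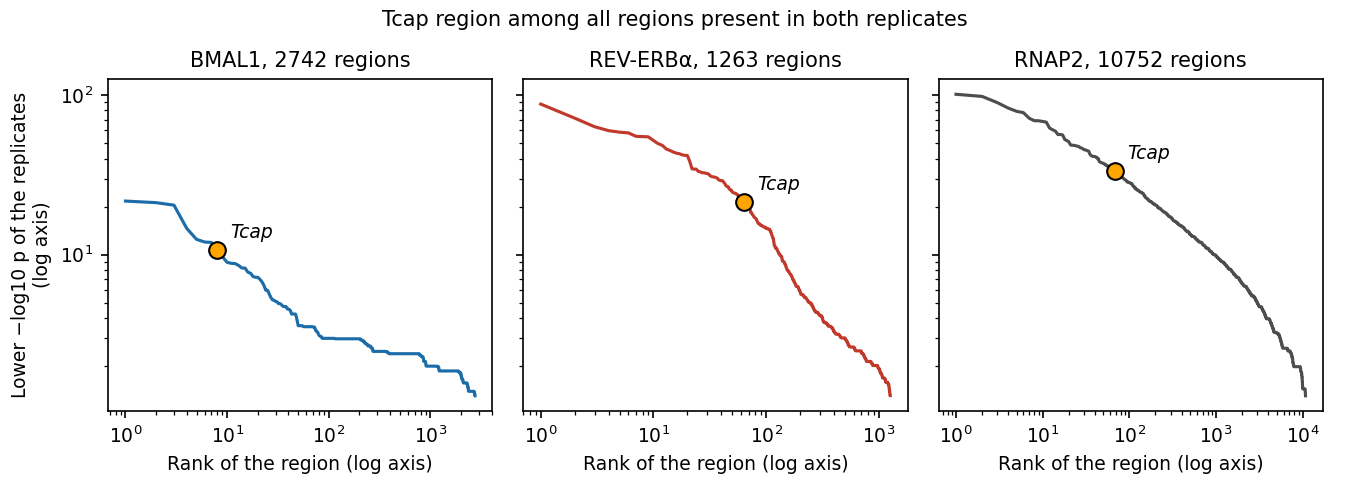
Weaker −log10 p value of both replicates (log axis) by rank (log axis) for every region present in both replicates, with the Tcap region as an orange point. It holds rank 8 for BMAL1, 64 for REV-ERBα and 68 for RNAP2.

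The summits, where each peak is highest, fell into separate places. Both RNAP2 summits lay in the intron of *Tcap*, 225 bp downstream of its TSS in replicate 1 and 190 bp in replicate 2, only 35 bp apart. Both REV-ERBα summits lay in the gap between *Tcap* and *Pnmt*, 375 bp past the *Tcap* end in replicate 1 and 213 bp past it in replicate 2, which is 1122 and 1284 bp before the first *Pnmt* base. The BMAL1 replicates did not share a place: the summit of replicate 1 lay upstream of *Tcap*, at −254 bp from its TSS, and that of replicate 2 lay 238 bp past the *Tcap* end.

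The summit of BMAL1 replicate 2 was 25 bp from the summit of REV-ERBα replicate 2 and 137 bp from that of replicate 1, and these 3 summits spanned 162 bp. They were 1130 to 1327 bp downstream of the RNAP2 summits. The 1634 bp between the BMAL1 summits was above the median of 245 bp over all BMAL1 regions, most of which are too narrow to reach it. Among the 19 BMAL1 regions of 3 kb or more it was close to the median of 1788 bp, and 10 of the 19 had a larger distance. The 162 bp between REV-ERBα summits and the 35 bp between RNAP2 summits were below the medians of 618 and 109 bp of the 52 and 72 regions of that width. The position of BMAL1 within the *Tcap* peak was thus not reproduced between replicates, although the peak itself was.

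**Figure D3:**
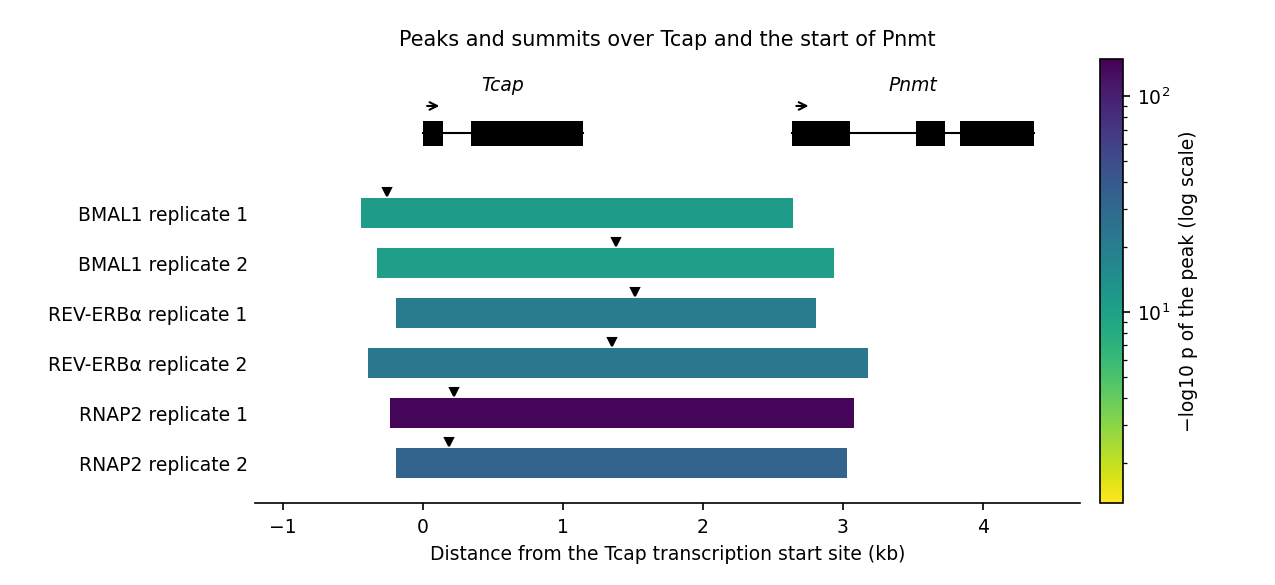
The 6 peaks over Tcap and the start of Pnmt by distance from the Tcap TSS in kb, with exons as black boxes. Bars are peaks coloured by −log10 p (log scale) and triangles are summits. The RNAP2 triangles sit in Tcap, the REV-ERBα triangles and that of BMAL1 replicate 2 between Tcap and Pnmt, and that of BMAL1 replicate 1 before Tcap.

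Sequence under the site was searched on both strands for letters tied to these factors. The canonical E-box CACGTG had 0 matches in the 3627 bp. A window of the same length around the summit held it in 28.5% of BMAL1 regions and 36.7% of REV-ERBα regions, and the 200 bp around the summit in 2.55% and 3.40%. In these shares and those below, the summit of a region is that of its stronger replicate. At *Tcap* this is replicate 1 for BMAL1 and replicate 2 for REV-ERBα. The looser core CANNTG, which takes in CACGTG as well as CATGTG and CAGCTG, had 13 matches, and every one of the 2742 BMAL1 windows of this length held at least 1 (100%).

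CATGTG began 25 bp before the summit of BMAL1 replicate 1. Some form of the CANNTG core lay in the 200 bp around the summit in 65.2% of BMAL1 regions, and CATGTG alone was not counted. CAGCTG, a form known from muscle-lineage factors such as MYOD, had 3 matches, of which the one at 98385187 to 98385192 began 4 bp before the summit of BMAL1 replicate 2 and 21 bp after that of REV-ERBα replicate 2. CAGCTG lay in the 200 bp around the summit in 7.08% of BMAL1 and 12.7% of REV-ERBα regions. The *Tcap* region is not among the 7.08%, since the match nearest to the summit of BMAL1 replicate 1 began 728 bp after it. No match to the MEF2 motif was found in the site, against 64.3% and 50.4% of BMAL1 and REV-ERBα windows of this length.

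AGGTCA, the nuclear receptor half-site, had 3 matches in the site, and 86.7% of BMAL1 and 89.6% of REV-ERBα windows of this length held at least 1. A pair of them at 98383634 to 98383646, on the minus strand and 177 to 165 bp upstream of the *Tcap* TSS (−177 to −165), formed a direct repeat with 1 base between the half-sites (AGGTCANAGGTCA), the arrangement known from PPAR and RXR receptors. It began 77 bp downstream of the summit of BMAL1 replicate 1 and 1557 bp upstream of that of replicate 2. Of the 2742 BMAL1 regions, 1 (0.0365%, the *Tcap* region) had this repeat in the 200 bp around its summit, as did 0 of 1263 REV-ERBα regions and 13 of 32851 RefSeq promoters (0.0396%, GRCm38.p6, 250 bases before to 50 after the start). By the summit of BMAL1 replicate 2, the *Tcap* region would not count. In the window of the site's length, 11 BMAL1 regions (0.401%) and 14 REV-ERBα regions (1.11%) held it. The remaining AGGTCA match, at 98385403 on the minus strand, lay past the end of the second printed stretch. It began 75 bp after the summit of REV-ERBα replicate 1 and 237 bp after that of replicate 2. AGGTCA lay in the 200 bp around the summit in 10.7% of BMAL1 and 13.1% of REV-ERBα regions. By the summit of REV-ERBα replicate 2, the *Tcap* region is not among the 13.1%.

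The direct repeat with 2 bases between the half-sites (AGGTCANNAGGTCA), a form known for REV-ERBα dimers, had 0 matches, against 0.0365% of BMAL1 and 0.158% of REV-ERBα windows. Only these exact letters were searched, so looser forms were missed and the 0 says little. The study lists this repeat near the top of its own motif ranking for both factors. GGGTCA had 2 matches, at 98385285 on the plus strand and 98385292 on the minus strand, which began 43 and 36 bp before the summit of REV-ERBα replicate 1. From the stronger REV-ERBα summit, that of replicate 2, these 2 matches began 119 and 126 bp downstream. GGGTCA lay in the 200 bp around the summit in 8.63% of REV-ERBα regions and in 13.7% of RefSeq promoters. By that summit, the *Tcap* region is not among the 8.63%. The direct repeats, GGGTCA and CATGTG were searched for after the sequence had been read, so the rarity of a match describes this site and is no test.

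By the rule of gene body or 10 kb, 4 of the 5 genes had a BMAL1 region in both replicates (*Tcap*, *Pnmt*, *Pgap3* and *Stard3*), where 6.81% of all protein-coding genes did. The same 4 had a REV-ERBα region in both replicates (4.44% of all genes), and the same 4 had a shared site, meaning that 3 or more of the 4 lists of these factors held a peak there (1.62%), and also one in all 4 (0.474%). All 5 had an RNAP2 region in both replicates (41.1%), although *Ppp1r1b* lost it when peaks needed a −log10 p of at least 3, a −log10 q of at least 1.3 or a mutual overlap of at least 50% of each peak, and *Pgap3* lost it at a distance of 5 kb or 1 kb. These are not separate events: for BMAL1, for REV-ERBα and for the shared site, 1 region gave all 4 genes their call. It overlapped the bodies of *Tcap* and *Pnmt*, and reached *Pgap3* and *Stard3* only by way of annotated TSSs within 10 kb. With a distance of 5 kb or 1 kb, *Tcap* and *Pnmt* alone had a BMAL1, REV-ERBα or shared site.

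Which gene the site sits on depended on the point that was read. The nearest TSS to the summit of the strongest peak was that of *Tcap* for BMAL1 and RNAP2 and that of *Pnmt* for REV-ERBα. Taken list by list, BMAL1 replicate 1 and both RNAP2 replicates lay nearest to *Tcap*, and BMAL1 replicate 2 and both REV-ERBα replicates nearest to *Pnmt*. Of the bodies, *Tcap* was covered whole in all 6 lists, and *Pnmt* at its 5′ end. No peak of any list had its summit within *Pnmt*.

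**Figure D4:**
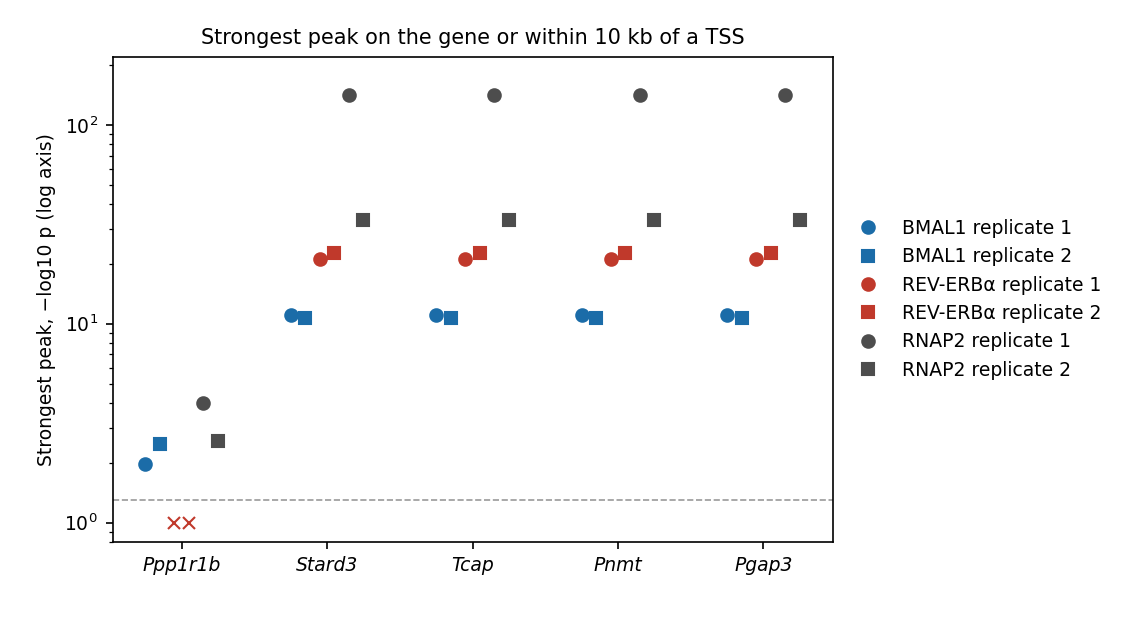
Strongest −log10 p (log axis) on each gene or within 10 kb of its TSSs in the 6 lists, with circles for replicate 1 and squares for replicate 2. Crosses below the dashed line (p of 0.05) mark lists with no peak. The values of Stard3, Tcap, Pnmt and Pgap3 are the same because they come from the same peaks, and Ppp1r1b has values of 1.97 to 3.97 for BMAL1 and RNAP2 and none for REV-ERBα.

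*Stard3* had peaks of its own in 4 lists. In BMAL1 replicate 1, a peak in an intron (98367827 to 98368376) had a significance of 6.46 and rank 86, and a peak over an exon (98377730 to 98378160) had 5.99 and rank 121. Neither was in BMAL1 replicate 2, and neither was in a REV-ERBα list. RNAP2 had a region in both replicates over the *Stard3* start and the end of *Ppp1r1b* (98357589 to 98358756), at 3.97 in replicate 1 and 2.58 in replicate 2. Its replicate 1 peaks began at 98358024 and 98358382, past the *Ppp1r1b* end, so only the replicate 2 peak reached that gene. This region was weak beside the *Tcap* region, with a fold enrichment of 3.33 and 2.49 against 40.7 and 12.9.

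*Pgap3* had an RNAP2 peak at its outermost start in replicate 1 alone (98400290 to 98400680, significance 3.09). Replicate 2 had peaks of 1.99 in its body, and the peak at 98391829 to 98392128 covered an annotated inner TSS. *Ppp1r1b* had no BMAL1 or REV-ERBα region in both replicates, and its RNAP2 region was the one at the *Stard3* start. Only the replicate 2 peak of that region overlapped the *Ppp1r1b* body. The strongest BMAL1 peak of *Ppp1r1b* had a significance of 1.97 in replicate 1 and 2.48 in replicate 2, at different positions upstream of the gene. Peaks of a single list say little, since 38.2% and 84.4% of all genes had at least 1 in BMAL1 replicates 1 and 2, 38.7% and 40.1% in those of REV-ERBα, and 76.9% and 86.5% in those of RNAP2. *Pnmt* had no peak with its summit in the gene, and the RNAP2 peaks over its start were those with their summits in *Tcap*.

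Of 11 flanking genes, from *Fbxl20* to *Gsdma*, 0 had a BMAL1 region in both replicates (6.81% of all genes), 0 a REV-ERBα region (4.44%) and 0 a shared site (1.62%), and at these shares a list of this size would hold few or none. An RNAP2 region was present in both replicates for 4 of them, near the share of 41.1% over all genes: *Cdk12* and *Med1*, which share a region (9.47), *Fbxl20* (7.99) and *Erbb2* (2.60), all below the 33.2 of *Tcap*.

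Among the 110 shared sites present in all 4 BMAL1 and REV-ERBα lists, the *Tcap* site had rank 3 by its lowest significance over the 4 lists (10.6). It was number 44 of all 550 shared sites by width, with 3627 bp against a median of 1232 bp. RNAP2 had a region in both replicates at 154 of the 550 shared sites. Of the sites in all 4 lists, 29 of the 47 that were 3 kb or wider had one (61.7%), as did 38 of the 63 narrower ones (60.3%). Of the 100 strongest RNAP2 regions, 13 overlapped a site of all 4 lists, as did 69 of the other 10652 (0.648%). The part of RNAP2 occupancy in the clock factor peaks at *Tcap* was not tested.

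The genes whose pattern over the 6 lists was most like that of *Tcap* were found by the distance between the percentiles of the strongest peak in each of the 6 lists, RNAP2 included, over 3125 of the 3129 genes (14.3% of all genes) with a peak in every list. High values in all lists are thus part of the choice. The smallest distance was 0.137, for *Acta1*, the skeletal muscle α-actin gene, and for *Gm20388*, an annotated gene with the same peaks. They were followed by *Txnip*, a glucose-responsive arrestin-family gene (0.194), *Myh4*, the fast myosin heavy chain IIb gene (0.233), and *Mrpl23*, a mitochondrial ribosomal protein gene (0.253).

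For *Acta1*, the significance in replicates 1 and 2 was 7.45 and 4.95 with BMAL1, 19.6 and 21.2 with REV-ERBα, and 131 and 39.9 with RNAP2. For *Myh4* it was 8.68 and 7.22 with BMAL1, 13.7 and 14.9 with REV-ERBα, and 71.3 and 31.9 with RNAP2. *Tcap* was above both genes in each list, except for RNAP2 replicate 2, where *Acta1* was higher. *Mrpl23* was above *Tcap* in both REV-ERBα lists (24.7 and 37.2), and *Txnip* in RNAP2 replicate 2 (82.8). In their other lists, *Mrpl23* and *Txnip* were below *Tcap*.

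*Tcap* was then set beside 29 other genes of the Z-disc and the sarcomere scaffold. A shared site was found for 8 of them (27.6%, against 1.62% of all genes): *Ttn*, *Actn3*, *Myoz1*, *Ldb3*, *Ankrd23*, *Des*, *Mybpc2* and *Myom1*. Some are very long (*Ttn*, the titin gene, spans 278568 bp and had 25 shared sites), and long genes overlap more regions by their bodies. By distance from a TSS alone, without the bodies, the same 8 genes had a shared site. In all 4 lists, a site remained for 5 (*Ttn*, *Actn3*, *Myoz1*, *Ankrd23* and *Mybpc2*).

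None of the 29 reached *Tcap* for BMAL1 or RNAP2. For BMAL1, 10 had a region in both replicates (6.81% of all genes did), with a median of 2.54 (1.87 over all genes with one), and the highest was *Mybpc2*, which encodes fast myosin-binding protein C, at 4.25 against 10.6 for *Tcap*. For REV-ERBα, 11 had one (4.44% of all genes), with a median of 3.36 (3.18 over all genes), and *Myom1*, the gene of the M-band protein myomesin, was above *Tcap* (32.6 against 21.2). That region was not the shared site of *Myom1*, where REV-ERBα had 3.02 and 2.91 and BMAL1 a peak in replicate 2 alone (1.87). For RNAP2, 22 had one (41.1% of all genes), with a median of 7.46 (4.47 over all genes), and the highest was *Ttn* at 28.4 against 33.2.

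**Figure D5:**
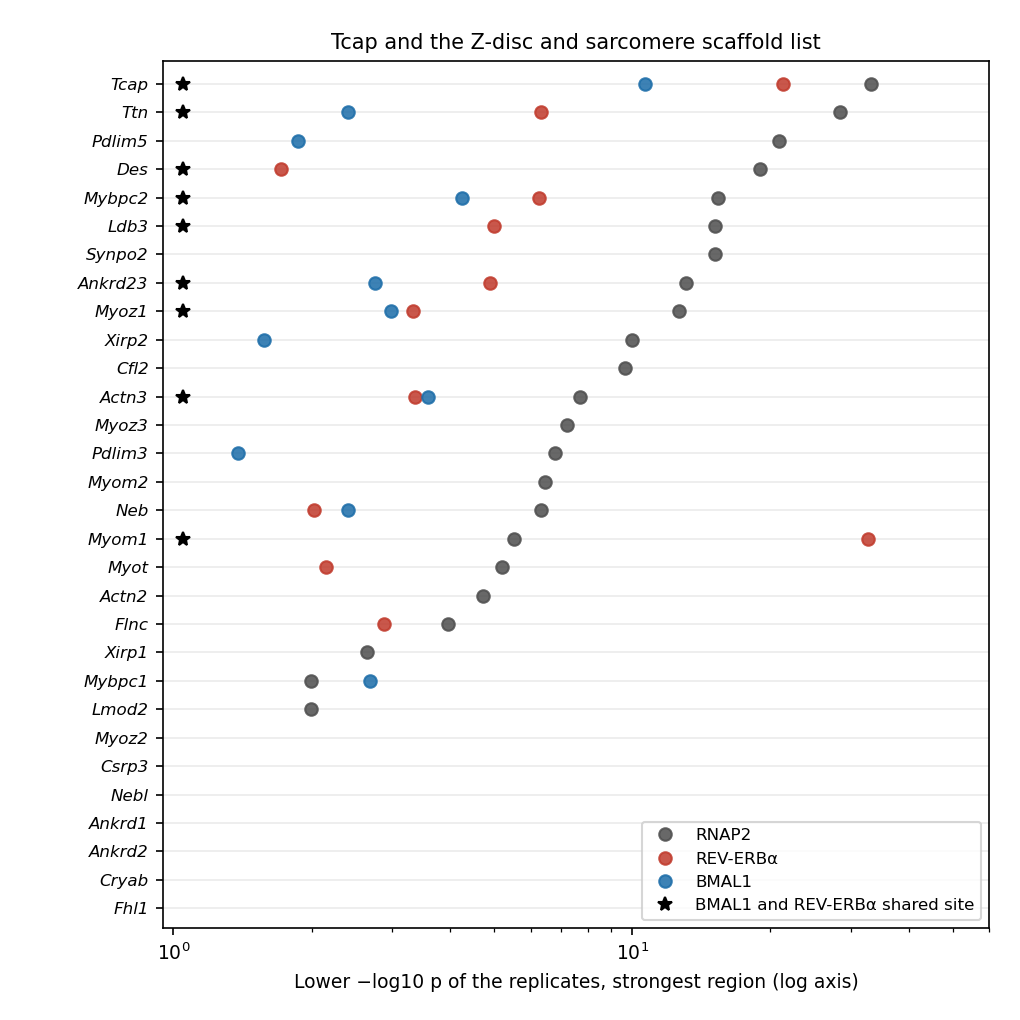
Weaker −log10 p value of both replicates (log axis) for the strongest region of each factor on Tcap and the 29 genes of the Z-disc and sarcomere scaffold list, ordered by RNAP2 after Tcap. Stars at the left mark genes with a site shared by BMAL1 and REV-ERBα, which can differ from the region plotted. A gene without a point had no region in both replicates. Tcap has the highest BMAL1 (10.6) and RNAP2 (33.2) values, and Myom1 the highest REV-ERBα value (32.6).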

How the data were processed

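ChIP-seq peaks of 6 libraries were analysed, and the input library was not analysed here. Per the labels and the methods of the study, the authors aligned reads with BWA 7.12 to mm10 (GRCm38), discarded duplicates and reads that mapped to several places, down-sampled replicates of each factor and called peaks per library against input with MACS2 2.1.1 at a p-value of 0.05. The deposited fold enrichment is a ratio of summit signal to the input background, and the deposited −log10 p-value and −log10 q-value are those MACS2 gave each peak. The deposited score was not used, and the deposited summit offset gave the summit position. The reads at a peak are not part of the lists, so the number of reads behind a value is unknown and no counting interval was given. Per the study, down-sampling brought the replicates of a factor to similar numbers of reads. The cutoff admits many weak peaks, and a −log10 p grows with read depth, so levels were compared by rank within a list.

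Overlapping peaks (1 bp or more) were joined into regions, and a region counted for a factor when both replicates had a peak in it. Its strength was the lower −log10 p. Genes came from GENCODE M21 (protein-coding), and sequence from RefSeq GRCm38.p6. RNAP2 replicate 1 had 9 peaks on other sequences, which were left out. Counts were set beside the share over all genes, with no test. The text names the 5 members, the flanking genes, the Z-disc genes with a shared site or the highest value for a factor, the 5 genes most like *Tcap* and the highest marker genes. Of the flanking genes, *Neurod2* is also in the neuron and glia marker list. 1 gene of the Z-disc list is not reported here and was left out of its counts. The members and the gene lists were chosen with earlier results of these data known. Alternatives were other thresholds, overlaps, distances and assignments, other summaries and motifs, and leaving out each replicate. Scripts were tested on simulated data and run in Python 3.11.15 with numpy 2.4.6, pysam 0.24.0 and matplotlib 3.10.9.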

Additional observations from a re-analysis of the deposited data

How the results depend on the processing

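Of 95 alternative values over 14 results, 64 stayed within the limits set for a change and 31 moved. For counts and ranks the limit was a set ratio, and for a −log10 p it was the SD of the 2 replicates. The outcome for the mean of the replicates and for 1 replicate left out was then fixed by arithmetic. RNAP2 at *Tcap* thus counted as staying with 87.2 for the mean against 33.2. The 64 is therefore no measure of stability. The rank of *Tcap* for REV-ERBα stayed between 55 and 77. Against 4 genes with a BMAL1 region in both replicates, requiring summits within 200 bp left 0, a distance of 5 kb or 1 kb left 2, and assignment by the nearest TSS or by a summit in or 1 kb before the gene left 1 (*Tcap*). For REV-ERBα the 4 genes became 2 at 5 kb or 1 kb, 1 by the nearest TSS (*Pnmt*) and 0 by the summit. For RNAP2 the 5 genes became 2 by the nearest TSS or by the summit (*Tcap* and *Stard3*). For shared sites the 4 genes became 2 at 5 kb or 1 kb and 0 by the summit. For BMAL1, REV-ERBα and shared sites, the smaller counts under other distances and assignments follow from their construction, since 1 wide region carries the 4 calls, and the 0 under the summit rule for BMAL1 follows from the 1634 bp between the replicate summits. With the mean of the replicates, the rank of *Tcap* was 16 in place of 8 for BMAL1 and 6 in place of 68 for RNAP2.

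With 1 replicate left out, the −log10 p at *Tcap* ranged from 10.635 to 10.996 for BMAL1, 21.2 to 22.7 for REV-ERBα and 33.2 to 141 for RNAP2, and the rank from 14 to 34 for BMAL1 and from 2 to 70 for RNAP2, the 2 and the 141 being without RNAP2 replicate 2. The rank of 34 was without BMAL1 replicate 2 and that of 14 without replicate 1, both in a whole list and not among regions of both replicates. Of the Z-disc genes, 8 with a shared site became 5 when all 4 lists were required and 4 with peaks of a −log10 p of at least 3, and 5 to 8 with 1 list left out (5 without BMAL1 replicate 2, REV-ERBα replicate 1 or REV-ERBα replicate 2). The 0 matches to CACGTG became 13 with CANNTG and 10 with at most 1 mismatch. The search for the direct repeats and GGGTCA was added after seeing the data. No paired analysis was possible because the lists hold called peaks of separate antibodies and no result comes from a test. With 2 replicates per factor and no reads per peak, the error of a summit position could not be estimated beyond the distance between replicates.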

Other observations

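Among the genes that flank the locus, some values did not repeat as a region in both replicates. *Erbb2*, which encodes a receptor tyrosine kinase, had a BMAL1 peak with a −log10 p of 5.68 in replicate 2 and none in replicate 1. *Ormdl3*, an endoplasmic reticulum protein gene of sphingolipid synthesis, had RNAP2 peaks of 10.2 in replicate 1 and 3.26 in replicate 2 that did not form a region in both.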
